A study of Drosophila melanogaster and Drosophila pseudoobscura and Drosophila virilis with 4 samples.

Results

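The 256 peaks of open chromatin described here lie outside the 5 large chromosome arms of *D. melanogaster*. They were chosen by position alone, as every peak of the table whose sequence is not 2L, 2R, 3L, 3R or X, and no measured value entered the choice. Of 19424 peaks in all, 193 lay on chromosome 4 and 63 on other sequences, and the 19168 peaks of the arms served as the reference. The 63 were made up of 24 on 2RHet, 14 on 3LHet, 8 on XHet, 7 on 3RHet, 2 on 2LHet, 5 on U and 3 on Uextra. Chromosome 4 and the other sequences are reported apart.

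FAIRE-Seq recovers the DNA that is least occupied by nucleosomes after cross-linking, so that reads pile up over enhancers, promoters and other open regions. It was applied to eye-antennal imaginal discs, the larval epithelia that form the adult eye and antenna, dissected from larvae of the last, wandering stage, of flies kept at 25 °C. There were 4 libraries, 1 each of *D. pseudoobscura* (wild type), *D. virilis* (wild type), and the *D. melanogaster* strains FRT82 (genotype P{neoFRT}82B, an insertion of a recombination site on the right arm of the third chromosome) and Canton S. The spread between FRT82 and Canton-S is the only measure of error, it may be technical, and neither of the other species has a replicate of its own. No source used here gives the sex of the larvae or the number of discs per library.

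Chromosome 4, the dot chromosome or Muller element F, is the smallest chromosome of *Drosophila*. It is largely packaged as heterochromatin, yet its genes are expressed, and a chromosome-specific protein, POF, binds it in *D. melanogaster*. It carries several regulators of eye and antenna development, among them *ey* and *toy*, the Pax6 genes that start eye formation, *ci*, the transcription factor at the end of Hedgehog signalling, *pan*, the TCF factor of Wingless signalling, *sv*, a Pax2 gene used in cone cells, and the homeobox gene *zfh2*. The RefSeq table of release 6 lists all of these on chromosome 4. Its positions are of another build than those of the peaks (release 5), so no peak was given a gene and no sequence is shown. The sequences ending in Het are blocks of centromeric heterochromatin assigned to an arm, and U and Uextra collect scaffolds that were not placed.

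The peak table gives reads per peak and a normalized RPKM (reads scaled by peak length and library size, then brought to a like distribution in every library). Between 92.2% and 97.0% of the RPKM values of a library recurred exactly in another library, so an RPKM value is close to a rank within its library. Reads summed over all peaks to 4733792 in *D. pseudoobscura*, 3009250 in *D. virilis*, 1386805 in FRT82 and 3407230 in Canton-S. On chromosome 4 the median peak held 81 reads in *D. pseudoobscura*, 73 in *D. virilis*, 29 in FRT82 and 93 in Canton-S. Counting error alone was thus 11.1%, 11.7%, 18.6% and 10.4% of that median, in the same order of libraries. FRT82 was the shallowest, with fewer than 10 reads at 9 of the 193 chromosome 4 peaks and at 15 of the 63 peaks on other sequences, against 4.1% of all peaks.

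Peaks were about as dense on chromosome 4 as on 2L, denser than on X and less dense than on 2R, 3L and 3R. Its 193 peaks spanned chr4:63536-1256394, which gives 161.8 peaks per Mb, against 102.2 on X, 162.2 on 2L and up to 186.1 on 2R. Set against the protein-coding genes of release 6, there were 2.41 peaks per gene on chromosome 4 (80 genes), and between 1.04 on X and 1.62 on 3L on the arms. The peaks were shorter, with a median of 251 bp against 290 bp on the arms, and the longest reached 1979 bp. Together they filled 5.73% of the span, against 3.31% on X and between 5.97% (2L) and 7.07% (2R) on the other arms. The widest stretch without a peak ran for 54366 bp, from position 274093 to 328459.

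Peak heights on chromosome 4 were low in *D. pseudoobscura*. The median peak stood at 16.6 RPKM in *D. pseudoobscura*, 21.9 RPKM in *D. virilis*, 20.1 RPKM in FRT82 and 27.2 RPKM in Canton-S. On the arms the corresponding medians were 28.2, 26.9, 28.8 and 28.4 RPKM. Canton-S was thus the one library whose chromosome 4 median came close to that of its arms, and FRT82 lay nearer to the other species than to Canton-S by this measure. The raw reads showed the low level in *D. pseudoobscura* as well. Chromosome 4 took 0.639% of the reads in peaks in *D. pseudoobscura* (95% Wilson interval 0.632% to 0.646%), 0.980% in *D. virilis* (0.969% to 0.991%), 0.849% in FRT82 (0.834% to 0.864%) and 0.978% in Canton-S (0.967% to 0.988%). The intervals cover counting error only. The share in *D. pseudoobscura* lay below those of both strains by more than the strains differed from each other, whereas *D. virilis* matched Canton-S.

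**Figure D1:**
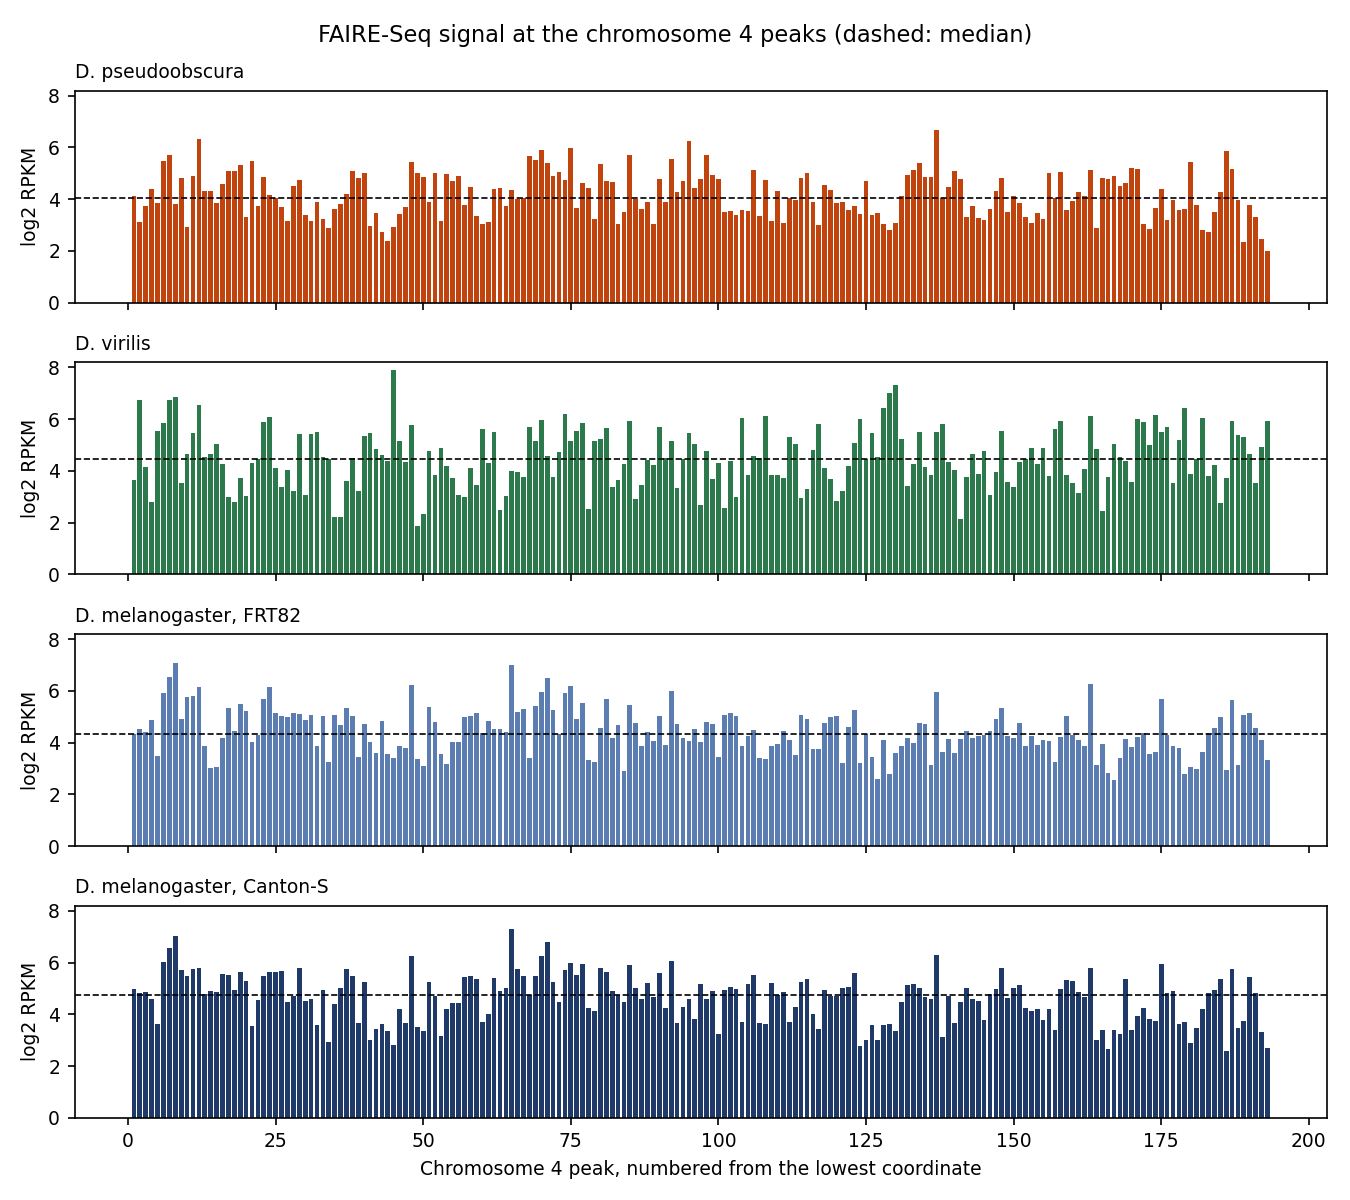
FAIRE-Seq signal (log2 RPKM, y axis, from 1 RPKM at the base) at each of the 193 chromosome 4 peaks in order along the chromosome (x axis), in 1 panel per library; the dashed line is the median of the panel. The profiles of FRT82 and Canton-S share their tall and short peaks, while the tallest *D. virilis* peak, at 242 RPKM, stands where every other library is below 11 RPKM.

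As a log2 ratio to the mean of both strains, *D. pseudoobscura* had a median of -0.43 over chromosome 4, against 0.03 over 2L, 2R and 3R. The chromosome was therefore 0.46 lower on the log2 scale than these 3 arms, or 0.73 of their ratio, and 134 of 193 peaks lay below 0. Among the arms, 3L had the lowest median, -0.21. This arm became X-linked in the lineage of *D. pseudoobscura*. In *D. virilis* the median was -0.12 on chromosome 4 and 0.00 on 2L, 2R and 3R, with 103 of 193 peaks below 0. Between the strains, the median log2 ratio of FRT82 over Canton-S was -0.27 on chromosome 4 and 0.01 on 2L, 2R and 3R, with 127 of 193 peaks below 0.

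That strain difference was larger than on any arm, where the medians lay between -0.03 and 0.06, and it sets the scale for the species. With Canton-S alone as the base, the *D. pseudoobscura* median relative to 2L, 2R and 3R was -0.60, and with FRT82 alone it was -0.35. The *D. virilis* value was -0.31 with Canton-S as the base and -0.02 with FRT82. The *D. pseudoobscura* median was thus larger in size than the strain difference of -0.27 under either base, while the *D. virilis* median was larger than it with Canton-S as the base and smaller with FRT82. Peaks are not replicates and each species has 1 library, so these differences carry no test.

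What set *D. virilis* apart on chromosome 4 was the spread of its ratios, not their centre. The SD over peaks of the log2 ratio to *D. melanogaster* was 1.43 in *D. virilis*, against 1.04 to 1.23 on the arms. In *D. pseudoobscura* it was 1.00, against 0.98 to 1.04 on the arms. For FRT82 over Canton-S it was 0.57, against 0.59 to 0.62 on the arms.

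**Figure D2:**
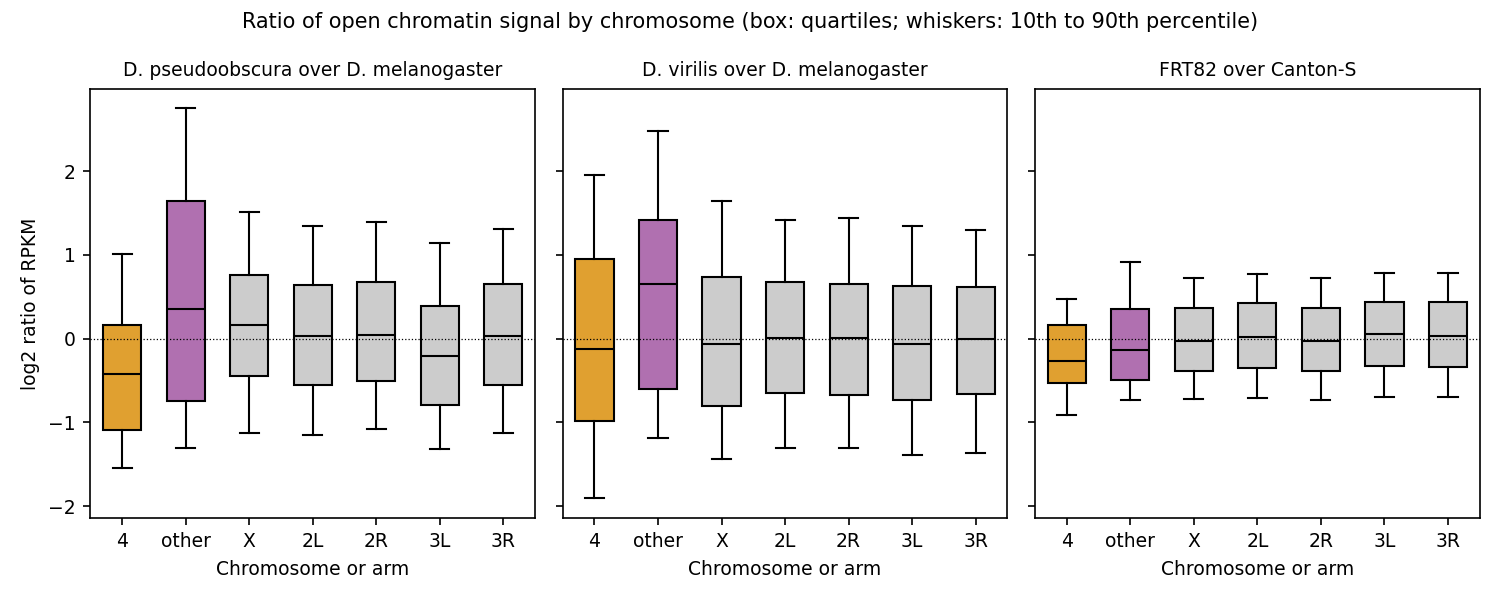
Log2 ratio of RPKM (y axis) by chromosome or arm (x axis) for *D. pseudoobscura* and *D. virilis* over the mean of both *D. melanogaster* strains, and for FRT82 over Canton-S; boxes give the quartiles and median over peaks, whiskers the 10th to 90th percentile. Chromosome 4 has the lowest *D. pseudoobscura* median (-0.43) and, beside the other sequences, the widest *D. virilis* box.

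Counts past 2-fold gave the same picture. In *D. pseudoobscura*, 55 of 193 chromosome 4 peaks (28.5%) were 2-fold or more lower than the mean of both strains, against 13.9% of all peaks, and 21 (10.9%) were 2-fold or more higher, against 15.6%. In *D. virilis*, 48 peaks (24.9%) were 2-fold or more lower, against 16.9% of all peaks, and 45 (23.3%) were higher, against 16.7%. Against all peaks, both tails were therefore fuller in *D. virilis* and only the lower one in *D. pseudoobscura*. Split by height (below), the upper tail in *D. virilis* was fuller than on the arms only among the stronger peaks. Between the strains, 15 peaks (7.77%) were 2-fold or more lower in FRT82 than in Canton-S, against 4.8% of all peaks, and 5 (2.59%) were higher, against 4.94%. The species ratios share the strains as their base and are not independent of each other. Set against each other directly, *D. pseudoobscura* was 2-fold or more lower than *D. virilis* at 62 peaks (32.1%), against 18.5% of all peaks, and higher at 37 (19.2%), against 20.5%.

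**Figure D3:**
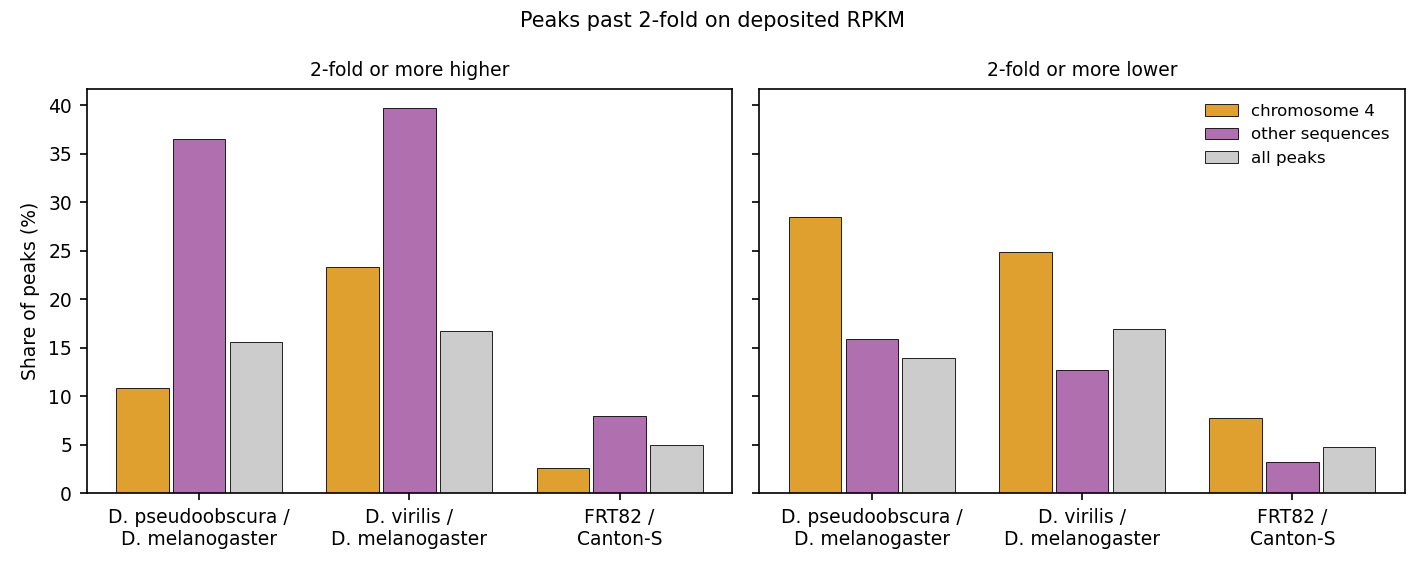
Share of peaks (y axis, percent) that were 2-fold or more higher (left) or lower (right) in each comparison (x axis), on chromosome 4, on the other sequences and over all peaks. Chromosome 4 bars exceed those of all peaks among the lower peaks in each comparison (28.5% against 13.9% in *D. pseudoobscura*), and the other sequences exceed them among the higher peaks (39.7% against 16.7% in *D. virilis*).

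The heights of chromosome 4 peaks were as alike between the strains as elsewhere, but not between the species. Over the 193 peaks, Pearson's r of log2 RPKM between FRT82 and Canton-S was 0.81, as on the arms (0.81). Between *D. virilis* and Canton-S it was -0.04 on chromosome 4, against 0.37 over the arms and 0.26 on X, the lowest arm. Between *D. virilis* and FRT82 it was 0.06, against 0.33 over the arms. *D. pseudoobscura* kept more of the order, with r of 0.38 to Canton-S on chromosome 4, against 0.45 over the arms, and 0.29 to FRT82, against 0.41. Between *D. pseudoobscura* and *D. virilis* themselves it was -0.04, against 0.24 over the arms. At the 180 chromosome 4 peaks with 10 or more reads in every library the *D. virilis* value was -0.06 to Canton-S and 0.09 to FRT82. Arm peaks with as many reads had 0.37 and 0.34. The *D. pseudoobscura* value was then 0.43 to Canton-S, close to the 0.46 of the arms, and 0.33 to FRT82, against 0.43. These are descriptions across peaks of the same libraries. A peak enters the table when it was called in any library, so peaks that are tall in 1 species and low in the others are part of every such comparison, on the arms too.

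**Figure D4:**
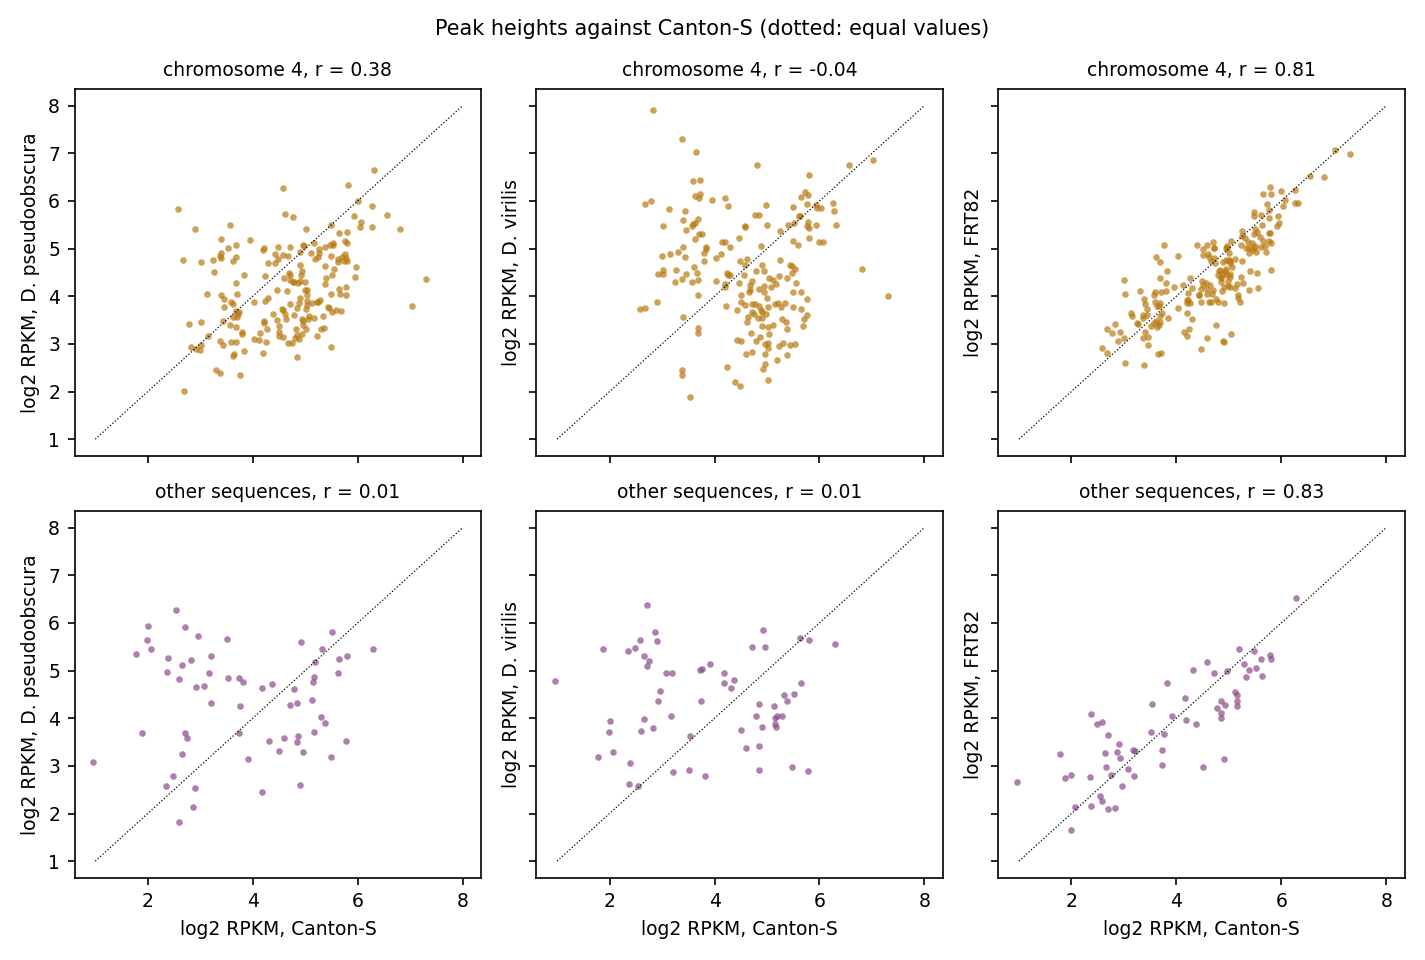
Log2 RPKM of *D. pseudoobscura*, *D. virilis* and FRT82 (y axes) against Canton-S (x axes) at the 193 chromosome 4 peaks (upper row) and the 63 peaks on other sequences (lower row), 1 point per peak; r is Pearson's. Points follow the dotted line of equal values for the strains (r = 0.81 and 0.83) and scatter widely for *D. virilis* (r = -0.04 and 0.01).

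The shift in *D. pseudoobscura* was seen in weak and strong peaks. Split at the chromosome 4 median of the mean over all 4 libraries (19.3 RPKM), the median log2 ratio of *D. pseudoobscura* was -0.21 in the 97 weaker peaks and -0.51 in the 96 stronger ones. Arm peaks split at the same height had medians of 0.30 and -0.08. For *D. virilis* the chromosome 4 medians were 0.38 in the weaker and -0.33 in the stronger peaks, against 0.49 and -0.13 on the arms. Of the weaker chromosome 4 peaks, 32.0% were 2-fold or more higher in *D. virilis*, against 35.3% on the arms, and of the stronger 14.6%, against 8.06%. The shares 2-fold or more lower were 24.7% and 25.0%, against 16.3% and 17.1% on the arms. By length, the *D. pseudoobscura* median was -0.21 in peaks of up to 251 bp and -0.63 in longer ones, where the arms had 0.00 and -0.01.

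Along the chromosome, the *D. virilis* ratios ran from low to high. Numbered from the lowest coordinate, the first 65 peaks (to position 509944) had a median log2 ratio of -0.44 in *D. virilis*, the next 64 had -0.23 and the last 64 (from position 993794) had 0.21. Peaks 2-fold or more lower numbered 22, 16 and 10 in these 3 sections, and peaks 2-fold or more higher numbered 11, 13 and 21. In *D. pseudoobscura* the medians were -0.58, -0.22 and -0.42, with 22, 17 and 16 peaks 2-fold or more lower. No error can be put on these trends with 1 library a species.

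Ratios of peaks close together were correlated. Of the chromosome 4 peaks, 65 pairs of neighbours lay up to 1 kb apart, and over these pairs r of the log2 ratio was 0.62 in *D. virilis* and 0.49 in *D. pseudoobscura*, against 0.28 and 0.32 over 8026 such pairs on the arms. For FRT82 over Canton-S it was 0.21, against 0.39 on the arms. A higher r did not mean closer values. The median absolute difference between such neighbours was 0.88 in *D. virilis* and 0.77 in *D. pseudoobscura*, against 0.74 and 0.68 on the arms. Between the strains this difference was 0.36, against 0.38. At 5 to 20 kb r was 0.09 in *D. virilis* and 0.02 in *D. pseudoobscura* over 55 pairs. Peaks each within 1 kb of the next formed 17 runs of 3 or more, with 57 peaks. In the 14 runs of exactly 3, all members had a ratio of 1 sign in 9 runs (64.3%) for *D. virilis* and in 8 (57.1%) for *D. pseudoobscura*, against 36.9% and 40.3% of 978 such runs on the arms. For FRT82 over Canton-S it was also 8 (57.1%), against 47.9% on the arms. Ratios that lie mostly on 1 side of 0 raise such shares by construction. On chromosome 4, 69.4% of the *D. pseudoobscura*, 53.4% of the *D. virilis* and 65.8% of the strain ratios were below 0. On the arms it was 50.4%, 50.8% and 49.1%.

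Several of the tallest peaks of the chromosome were tall in every library, which a choice by the mean over all 4 libraries favours. The long peak chr4:78986-80947 (1961 bp) had 52.3 RPKM in *D. pseudoobscura*, 107.9 in *D. virilis*, 92.0 in FRT82 and 93.9 in Canton-S, the highest mean of all. The peak chr4:528137-528984 had 59.8 RPKM in *D. pseudoobscura*, 62.0 in *D. virilis*, 62.4 in FRT82 and 77.0 in Canton-S. All 4 libraries were close here, and so they were at the longest peak, chr4:679235-681214, with 51.7, 60.2, 44.2 and 60.8 RPKM in the same order. The peak chr4:93469-94059 was taller in the other species, with 80.6 RPKM in *D. pseudoobscura*, 93.0 in *D. virilis*, 71.1 in FRT82 and 56.0 in Canton-S. At chr4:1010142-1010602 *D. pseudoobscura* reached its chromosome 4 maximum of 100.8 RPKM, with 45.4 in *D. virilis*, 61.9 in FRT82 and 79.3 in Canton-S. The peak chr4:156242-157675 (1433 bp), among the 3 longest, was low only in *D. virilis*, at 13.3 RPKM, with 40.0 in *D. pseudoobscura*, 45.0 in FRT82 and 49.8 in Canton-S.

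The lowest *D. pseudoobscura* ratio lay beside the tallest region of the chromosome. At chr4:81019-81414, which starts just after the long peak above, the signal was 13.9 RPKM in *D. pseudoobscura* (89 reads), 117.0 in *D. virilis* (483), 134.2 in FRT82 (273) and 130.4 in Canton-S (590). *D. pseudoobscura* was 9.53-fold lower than the mean of both strains, which differed by 0.04 on the log2 scale, and *D. virilis* was within 1.13-fold of them. At chr4:90389-90693 *D. pseudoobscura* had 7.62 RPKM, *D. virilis* 25.0, FRT82 54.2 and Canton-S 44.7. At chr4:1228687-1228934 the strains disagreed, with 33.7 RPKM in FRT82 and 13.5 in Canton-S, beside 5.08 in *D. pseudoobscura* and 39.6 in *D. virilis*, so that *D. pseudoobscura* lay below both strains and *D. virilis* above both.

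The peaks with the highest *D. pseudoobscura* ratios were low in *D. melanogaster*, which such a choice favours, and 3 of the 4 rest on few reads there. The largest ratio was at chr4:1211579-1211735, with 57.3 RPKM in *D. pseudoobscura* (163 reads), 13.3 in *D. virilis* (26), 7.59 in FRT82 (7) and 5.98 in Canton-S (18), an 8.51-fold difference from the strains. At chr4:1148471-1148754 the values were 42.7, 14.8, 8.31 and 7.45 RPKM in the same order, and at chr4:1115350-1115691 they were 27.1, 13.5, 7.02 and 6.39 RPKM. In these 3 peaks *D. pseudoobscura* was highest and *D. virilis* second. A further one, chr4:724386-724763, had more reads, with 76.8 RPKM in *D. pseudoobscura* (535), 44.6 in *D. virilis* (189), 16.6 in FRT82 (35) and 23.9 in Canton-S (129).

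The widest difference on the chromosome was a *D. virilis* peak. At chr4:363347-363928 the signal was 241.8 RPKM in *D. virilis* (1543 reads), the fifth highest of all 19424 peaks in that library, against 7.60 in *D. pseudoobscura* (61), 10.7 in FRT82 (36) and 7.12 in Canton-S (79). *D. virilis* was 27.7-fold higher than the mean of both strains. Next came a run of 3 peaks, each within 1 kb of the next. At chr4:993794-994390 *D. virilis* had 157.9 RPKM, with 8.35 in *D. pseudoobscura*, 12.2 in FRT82 and 10.4 in Canton-S, and at chr4:992903-993076 the values were 129.7, 6.93, 6.93 and 12.5 RPKM in the same order. Its remaining member, chr4:992656-992825, was picked after its values were seen and had 86.1 RPKM in *D. virilis*, 8.21 in *D. pseudoobscura*, 17.0 in FRT82 and 12.03 in Canton-S. In all 3 only *D. virilis* was tall.

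At chr4:1148194-1148415 *D. virilis* had 86.9 RPKM, against 12.3 in *D. pseudoobscura*, 6.97 in FRT82 and 13.1 in Canton-S. The next peak along the chromosome is chr4:1148471-1148754, described above, where *D. pseudoobscura* was the tall library, so neighbouring peaks of 1 run were tallest in different species. The lowest *D. virilis* ratios, besides chr4:509686-509944 below, were at chr4:273838-274093, with 4.70 RPKM in *D. virilis* (11 reads), 14.0 in *D. pseudoobscura*, 25.97 in FRT82 and 32.6 in Canton-S, at chr4:263928-264142, with 4.598 (9 reads), 12.4, 33.6 and 21.0 RPKM in the same order, and at chr4:149567-150159, with 8.05 (54 reads), 33.9, 40.8 and 46.4 RPKM. In each of them *D. virilis* was the lowest library and *D. pseudoobscura* came next.

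Peaks that were higher in both strains than in both other species were more frequent on chromosome 4 than over all peaks. By any margin, however small, both strains stood above both other libraries at 65 of 193 peaks (33.7%). That compares with 22.7% of all peaks and 27.4% on 3L, the highest arm. At 2-fold or more it was 16 peaks (8.29%), against 4.02% of all peaks and 5.01% on 3L. Both strains stood below both other libraries at 25 peaks (13.0%), against 20.5%, and at 2-fold or more at 3 (1.55%), against 2.57%. Both strains stood farthest above both other species at chr4:509686-509944. It had 20.5 RPKM in *D. pseudoobscura* (94 reads), 16.0 in *D. virilis* (54), 126.8 in FRT82 (168) and 157.9 in Canton-S (484). The signal was 6.89-fold lower in *D. pseudoobscura* and 8.86-fold lower in *D. virilis* than in the mean of both strains, which differed by 0.32 on the log2 scale. Its neighbours chr4:510006-510665 and chr4:511590-511831, named after their values were seen, had the same order, with 16.2 and 16.7 RPKM in *D. pseudoobscura*, 15.4 and 13.7 in *D. virilis*, 36.0 and 39.4 in FRT82, and 54.6 and 44.9 in Canton-S.

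The next 3 by the smallest gap between strains and species were spread over the chromosome. The peak chr4:157770-158208 had 9.97 RPKM in *D. pseudoobscura*, 8.05 in *D. virilis*, 37.2 in FRT82 and 39.6 in Canton-S. The peak chr4:467366-467945 had 10.1, 11.0, 35.5 and 41.0 RPKM in the same order, and chr4:794928-795228 had 10.5, 7.96, 32.3 and 31.3 RPKM. In all 3 the strains lay within 1.2-fold of each other and about 3-fold or more above the other species.

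In the opposite direction, 2 of the 4 peaks farthest below both species were neighbours. At chr4:1115853-1116030 the signal was 30.1 RPKM in *D. pseudoobscura*, 32.7 in *D. virilis*, 5.86 in FRT82 (6 reads) and 10.5 in Canton-S (33), and at chr4:1116331-1116556 it was 22.7, 23.5, 10.7 and 9.59 RPKM in the same order. The others were chr4:852091-852342, with 26.5 RPKM in *D. pseudoobscura*, 69.1 in *D. virilis*, 10.3 in FRT82 and 12.3 in Canton-S, and chr4:1135411-1135638, with 36.2, 64.9, 18.4 and 15.5 RPKM. With chr4:1115350-1115691, described above, the first pair forms a run of 3 in which both strains were below both other species throughout.

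Between the strains the widest ratios rested on few reads. FRT82 was 2.50-fold higher than Canton-S at chr4:983319-983563, with 20.2 RPKM in FRT82 (27 reads) and 8.07 in Canton-S (37), and the second was chr4:1228687-1228934 above. FRT82 was lowest against Canton-S at chr4:104665-104911, with 8.18 RPKM in FRT82 (12 reads) and 29.9 in Canton-S (99), and at chr4:978064-978230, with 9.18 RPKM (9 reads) and 32.8 RPKM (72). In the first of these both other species were nearer to Canton-S, at 20.04 RPKM in *D. pseudoobscura* and 25.3 in *D. virilis*. In the second both were nearer to FRT82, at 15.0 RPKM in *D. pseudoobscura* and 9.28 in *D. virilis*.

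Read counts were tested for both strains against *D. pseudoobscura* and *D. virilis* as one group, so that a difference between these 2 species counts as error. By the quasi-likelihood test of edgeR, with Benjamini-Hochberg adjustment over 19424 peaks, 0 chromosome 4 peaks passed an adjusted p of 0.05, as did 0 of all peaks. The estimated coefficient of variation was 42.9% in this fit and 20.3% between the strains alone. At an unadjusted p under 0.05, 18 chromosome 4 peaks (9.33%) were higher in *D. melanogaster*, against 5.55% of all peaks, and 13 (6.74%) were lower, against 4.55%. The lowest adjusted p of the chromosome by edgeR, 0.130, was at chr4:509686-509944, with a log2 fold change of 2.74 ± 0.44 (SE), *D. melanogaster* over the other species. This SE was derived from the test, as the log2 fold change over the square root of its F statistic. DESeq2 and limma on log2(RPKM + 1) each called 3 chromosome 4 peaks at an adjusted p under 0.05, all higher in *D. melanogaster*. That was 1.81% of the 166 peaks to which DESeq2 gave an adjusted p, against 0.904% over all such peaks, and 1.55% by limma, against 1.4% of all peaks, which is close to the background. The limma set also held chr4:529044-529411 and chr4:81019-81414. At chr4:81019-81414 only *D. pseudoobscura* was low, at 13.9 RPKM, and *D. virilis* was within 1.13-fold of the strains. The peak chr4:509686-509944 was in both sets, with an adjusted p of 2.4e-05 from DESeq2 and 1.2e-07 from limma. Over all alternatives its adjusted p ran from 1.2e-07 to 0.953.

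A likelihood ratio of Ornstein-Uhlenbeck models, which asks whether 1 species has a level of its own on the tree, placed 72 of 193 chromosome 4 peaks (37.3%) in a class, against 31.9% of all peaks. The classes that were fuller than over all peaks were *D. virilis* gain, with 22 (11.4% against 6.94%), *D. virilis* loss, with 15 (7.77% against 5.71%), *D. pseudoobscura* loss, with 14 (7.25% against 4.62%), and *D. melanogaster* gain, with 13 (6.74% against 5.12%). *D. pseudoobscura* gain, with 5 (2.59% against 6.13%), and *D. melanogaster* loss, with 3 (1.55% against 3.34%), were emptier. The peak chr4:363347-363928 and the run of 3 around chr4:992903-993076 fell in *D. virilis* gain, chr4:81019-81414 in *D. pseudoobscura* loss and chr4:509686-509944 in *D. melanogaster* gain. A tree of 4 tips is too small for the chi-square threshold to be exact, so these counts describe and do not test.

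The 63 peaks on heterochromatic and unplaced sequences went the other way. They were weak in *D. melanogaster* and taller in the other species. Their median was 24.9 RPKM in *D. pseudoobscura*, 20.7 in *D. virilis*, 14.7 in FRT82 and 13.6 in Canton-S. As a log2 ratio to the mean of both strains the median was 0.35 in *D. pseudoobscura* and 0.66 in *D. virilis*, and FRT82 over Canton-S had -0.14. The ratios were spread more widely than on any arm, with an SD over peaks of 1.57 in *D. pseudoobscura* and 1.44 in *D. virilis*, against 0.72 between the strains. The share of reads did not show this difference between the libraries: these peaks took 0.181% of reads in *D. pseudoobscura* (95% Wilson interval 0.177% to 0.185%), 0.192% in *D. virilis* (0.187% to 0.197%), 0.165% in FRT82 (0.159% to 0.172%) and 0.195% in Canton-S (0.190% to 0.199%), so that both other species lay between the strains.

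In *D. pseudoobscura*, 23 of 63 peaks (36.5%) were 2-fold or more higher than the mean of both strains, against 15.6% of all peaks, and 10 (15.9%) were lower, against 13.9%. In *D. virilis*, 25 (39.7%) were higher, against 16.7%, and 8 (12.7%) were lower, against 16.9%. The shares of higher peaks were nearer to those of weak arm peaks, of up to 19.3 RPKM as above. Of these, 32.0% were higher in *D. pseudoobscura* and 35.3% in *D. virilis*, and 15.5% and 16.3% were lower. FRT82 was 2-fold or more higher than Canton-S at 5 of the 63 peaks (7.94%, against 4.94%) and lower at 2 (3.17%, against 4.8%). Both strains stood below both other libraries at 24 peaks (38.1%), against 20.5% of all peaks, and above at 10 (15.9%), against 22.7%. Asking for 10 reads or more in every library left 47 peaks, and the higher peaks were then 11 in *D. pseudoobscura* (23.4%, against 13.6% of all peaks that pass) and 14 in *D. virilis* (29.8%, against 14.8%). This minimum takes out peaks that are low in FRT82, which is part of the base of the ratio, so it lowers these counts by construction.

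**Figure D5:**
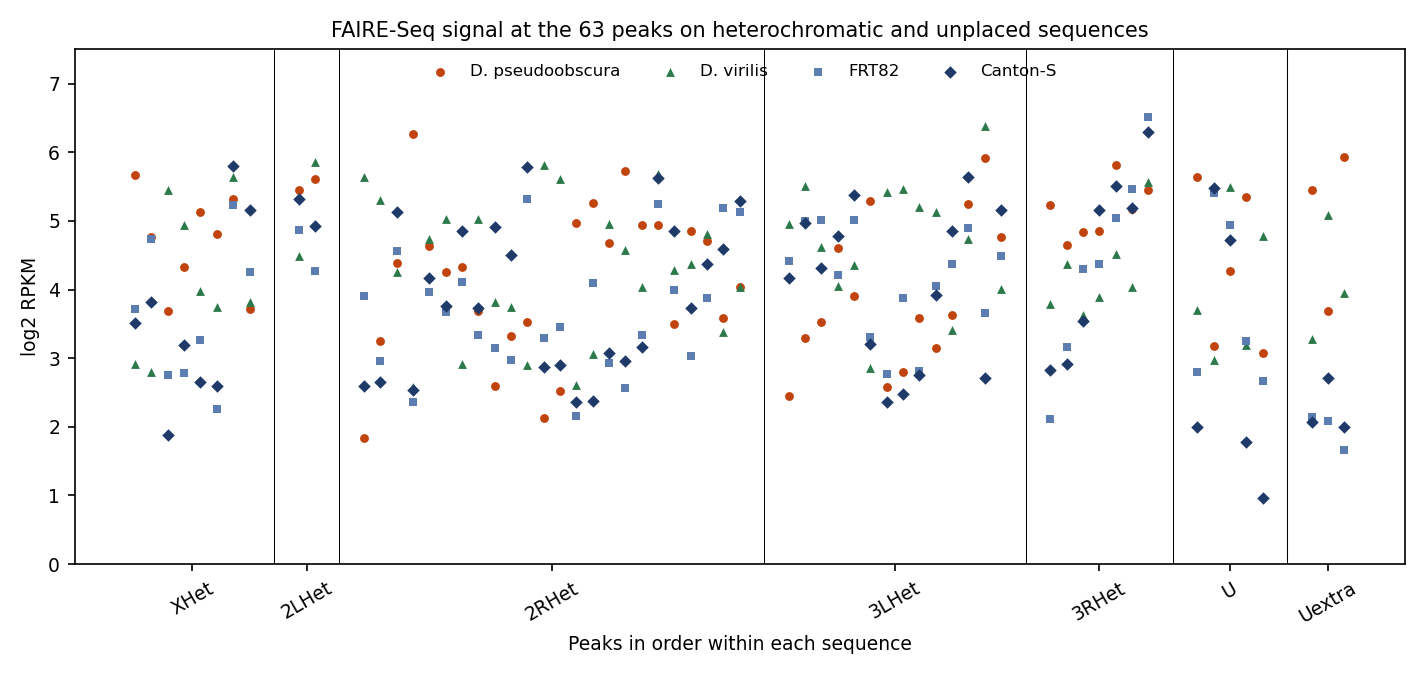
Log2 RPKM (y axis, from 1 RPKM) of each of the 63 peaks on heterochromatic and unplaced sequences, in order within each sequence (x axis), with 1 marker per library; lines separate the sequences. At each of the 3 Uextra peaks both strains lie below both other species, and on XHet the *D. pseudoobscura* median of 27.7 RPKM compares with 11.4 in FRT82 and 10.3 in Canton-S.

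The sequences differed. On XHet (8 peaks) the median was 27.7 RPKM in *D. pseudoobscura*, 15.0 in *D. virilis*, 11.4 in FRT82 and 10.3 in Canton-S, and on Uextra (3 peaks) it was 43.8, 15.4, 4.25 and 4.20 RPKM in the same order. On 3LHet (14 peaks) *D. virilis* was highest, with 28.8 RPKM, against 12.1 in *D. pseudoobscura*, 19.6 in FRT82 and 19.0 in Canton-S. On 3RHet (7 peaks) *D. virilis* was lowest, with 16.5 RPKM, against 36.1 in *D. pseudoobscura*, 20.7 in FRT82 and 35.8 in Canton-S. On 2RHet (24 peaks) the medians were 19.6, 20.1, 11.9 and 13.5 RPKM in *D. pseudoobscura*, *D. virilis*, FRT82 and Canton-S. Peaks were sparse on the larger blocks, with 7.75 per Mb between the first and last peak on 2RHet and 6.38 on 3LHet.

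The tallest of these peaks was open in all 4 libraries, which a choice by the mean over them favours, and taller in *D. melanogaster*. At chr3RHet:2474180-2474666 the signal was 43.6 RPKM in *D. pseudoobscura*, 47.3 in *D. virilis*, 91.7 in FRT82 and 78.1 in Canton-S. At chrXHet:75402-75690 it was 39.7, 49.9, 37.7 and 55.6 RPKM in the same order, and at chr2RHet:2775716-2776113 it was 30.7, 51.4, 38.1 and 49.3 RPKM. At the peak on XHet both other species lay between the strains, and at the one on 2RHet *D. pseudoobscura* lay below both strains and *D. virilis* above both. The other 3 of the tallest were chr3RHet:1935139-1935392, with 56.2 RPKM in *D. pseudoobscura*, 22.8 in *D. virilis*, 33.0 in FRT82 and 45.7 in Canton-S, chr2LHet:168718-169048, with 48.8, 57.9, 19.3 and 30.5 RPKM, and chr3LHet:2190548-2190753, with 37.9, 26.7, 29.7 and 49.9 RPKM. Only the one on 2LHet had both other species above both strains.

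The largest ratios were found where *D. melanogaster* had few reads, which such a choice favours. At chrUextra:289148-289307 *D. pseudoobscura* had 61.0 RPKM (177 reads) and *D. virilis* 15.4 (32), against 3.16 in FRT82 (3) and 4.00 in Canton-S (13). At chr2RHet:203567-203736 *D. pseudoobscura* had 76.8 RPKM (240 reads), against 5.99 in *D. virilis* (10), 5.15 in FRT82 (5) and 5.83 in Canton-S (19). The same order of species was seen at chrUextra:94303-94574, with 43.8 RPKM in *D. pseudoobscura*, 9.75 in *D. virilis*, 4.41 in FRT82 and 4.20 in Canton-S, and at chrU:448998-449170, with 49.8, 13.0, 6.97 and 3.98 RPKM. All 4 were tallest in *D. pseudoobscura*.

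At chr3LHet:2393354-2393506 both other species were tall, with 60.2 RPKM in *D. pseudoobscura* (167 reads), 83.4 in *D. virilis* (137), 12.6 in FRT82 (11) and 6.52 in Canton-S (19). At chrXHet:8246-8577 *D. virilis* led, with 43.9 RPKM (163 reads), against 12.8 in *D. pseudoobscura* (68), 6.75 in FRT82 (13) and 3.69 in Canton-S (26). By edgeR, 0 of the 63 passed an adjusted p of 0.05, the lowest being 0.219, while DESeq2 called 3 (2 higher and 1 lower in *D. melanogaster*) and limma 2 (1 higher and 1 lower), with chr3LHet:2393354-2393506 the lower one in both. By DESeq2 that was 3 of 50 peaks with an adjusted p, against 0.904% over all such peaks, and by limma 3.17% of the 63, against 1.4% of all peaks. At an unadjusted p under 0.05, 5 (7.94%) were higher in *D. melanogaster*, against 5.55% of all peaks, and 11 (17.5%) were lower, against 4.55%. The likelihood ratio placed 23 (36.5%) in a class, against 31.9% of all peaks. Heterochromatic sequence is rich in repeats, and the share of reads that map to several places was not examined here.

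Peak heights on these sequences were as alike between the strains as on chromosome 4, with r of 0.83 over the 63 peaks between FRT82 and Canton-S. To Canton-S, r was 0.01 in both *D. pseudoobscura* and *D. virilis*, and between these 2 species it was -0.31. At the 47 peaks with 10 or more reads in every library it was 0.16 to Canton-S in *D. pseudoobscura*, -0.15 to Canton-S in *D. virilis*, and -0.09 between the 2 species.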

How the data were processed

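FAIRE-Seq was analysed in 4 libraries of 3 species, grouped by species from the labels. Per the methods, the authors clipped adapters and aligned reads by Bowtie2 to each species' own genome (FlyBase release 5, 2 and 1 for *D. melanogaster*, *D. pseudoobscura* and *D. virilis*). For the other species, liftOver with a minMatch of 0.1 carried the alignments over to the *D. melanogaster* genome. F-Seq (feature length 200) was run on every library and the peaks were pooled into 1 list. The deposited counts are the authors' raw reads per peak from HTSeq, without strand. Regions with 0 reads in a species were left out, and peaks above 1 RPKM and longer than 150 bp were kept. The deposited RPKM were normalized by the authors within and between libraries, with a tool not given in the sources used here.

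Fold rules used log2 RPKM without a pseudocount and without a filter. Counts were tested with edgeR 4.0.16 (TMM, quasi-likelihood, all peaks), with DESeq2 1.42.0 and limma 3.58.1 as alternatives. The Ornstein-Uhlenbeck models were rewritten in numpy 2.4.6 on a tree with relative depths (root 1, split of *D. melanogaster* and *D. pseudoobscura* 0.9, strains 0.02), with 60 selection strengths from 0.05 to 200, a chi-square threshold (1 degree of freedom) and adjustment over peaks and models. The scripts were tested on simulated data. Peaks were named by a rule: on chromosome 4 the 5 highest, the 3 longest, the 4 highest and 4 lowest ratios per species, the 4 farthest above and below both species, and 2 strain ratios in each direction; elsewhere the 6 highest and the 6 with the largest ratio. The members and rules were chosen with earlier results of these data known. Coordinates are those of the deposited table.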

Additional observations from a re-analysis of the deposited data

How the results depend on the processing

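The chromosome 4 medians kept their direction, but that of *D. virilis* relative to 2L, 2R and 3R, -0.12, was -0.31 without FRT82 and -0.02 without Canton-S. The counts stayed within 1.5 times under the alternatives, with these exceptions. At 1.5-fold, *D. pseudoobscura* was lower at 84 chromosome 4 peaks, and FRT82 was higher than Canton-S at 11 and lower at 43. At 3-fold, *D. pseudoobscura* was higher at 7 and lower at 14, *D. virilis* higher at 27 and lower at 28, and FRT82 higher at 0 and lower at 3. With RPKM computed from the counts FRT82 was higher at 1 peak, and with log2(RPKM + 1) at 3. In the count test, an unadjusted p under 0.01 left 8 higher and 2 lower in *D. melanogaster*. Leaving out a strain gave 4 to 7 higher and 2 to 6 lower, and 0 higher and 1 lower (chr4:363347-363928, in either case) at an adjusted p under 0.05, where the lone strain is assumed to vary like the other libraries. At that threshold DESeq2 and limma gave 3 higher each, where they called 0.904% and 1.4% of all peaks in either direction. The likelihood ratio at an adjusted p under 0.01 placed 13 peaks, and RPKM computed from the counts put 24 in *D. pseudoobscura* loss. On the other sequences, 1.5-fold gave 17 lower in *D. pseudoobscura* and 16 lower in *D. virilis*, and 3-fold gave 4 and 2 lower, and 15 higher in *D. virilis*. RPKM computed from the counts gave 17 lower in *D. pseudoobscura*. A minimum of 10 reads, chosen with the other added settings after seeing the data, gave 11 higher in *D. pseudoobscura* and 14 in *D. virilis*. Leaving out a strain gave 8 to 14 lower in *D. virilis*, the highest without FRT82. The causes were not tested, apart from thresholds and filters, which change the counts by construction. No paired analysis was possible because each strain and each of the other species has 1 library. Depth limits FRT82 most, and liftOver, repeats and gene positions were not examined.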
